A study of Homo sapiens with 6 samples.

Results

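Gap junction transcripts were examined in HaCaT cells, an immortal, aneuploid line of human keratinocytes, with and without knockdown of IQGAP2, a scaffold protein that binds calmodulin and actin. The genes are GJA1 (Cx43), GJB2 (Cx26), GJB5 (Cx31.1) and GJB6 (Cx30), which were chosen by name as connexins known from the epidermis. Earlier results of these data were known when they were chosen. All 4 were in the table of 12829 genes, beside 5 other connexins. There were 3 libraries of wild-type cells, labelled as normal control, and 3 of cells carrying the hairpin shIQGAP2. Both groups were grown in DMEM with serum, and the labels give no age of the culture. The labels do not state whether control cells carried a hairpin, whether the knockdown line is 1 clone, or the number of hairpins. They call the libraries biological replicates but name no separate cultures. The p-values therefore measure the spread between these libraries only, which may be technical.

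Connexins are membrane proteins that assemble into hemichannels. Hemichannels of neighbouring cells dock to form gap junctions, through which ions and small metabolites pass, while undocked hemichannels can release ATP. In the epidermis GJA1 is the main connexin of the living layers. GJB2 and GJB6 are known to be low in resting epidermis between hair follicles and to be raised in healing wounds and psoriatic plaques, and GJB5 is known from the differentiating layers. Inherited changes of GJB2 and GJB6 cause deafness and disorders of keratinization.

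GJB2 and GJB6 are neighbours on GRCh38 chromosome 13, both on the minus strand, with 28951 bases between them in GENCODE v29. GJB2 (ENSG00000165474) lies at 20187463 to 20193010 and GJB6 (ENSG00000121742) at 20221962 to 20232395. GJB5 (ENSG00000189280) lies on chromosome 1 at 34755047 to 34758512, on the plus strand. GJA1 (ENSG00000152661) lies on chromosome 6 at 121435577 to 121449727, on the plus strand. GJA1 has a processed pseudogene, GJA1P1, and 5.72% of the 50-base windows of its transcripts also occurred exactly in that copy, so how such reads were divided is uncertain. No 50-base window of GJB2, GJB5 or GJB6 occurred in a transcript of another gene.

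The bases just upstream of GJB2 and of GJA1 are shown because GJB2 passed the test between the groups and GJA1 did not. They come from RefSeq promoter windows (GRCh38.p14) of 250 bases before and 50 after the RefSeq start, and only the part upstream of every GENCODE exon is printed. Capitals mark matches to a GC box (GGGCGG), which binds SP1 and SP3, an AP-2 site (GCCNNNGGC), an AP-1 site (TGAGTCA), the CCAAT box (named by its letters) or the promoter element called the TATA box (TATAAA), each searched on both strands.
GJB2, chr13:20193011-20193188, minus strand: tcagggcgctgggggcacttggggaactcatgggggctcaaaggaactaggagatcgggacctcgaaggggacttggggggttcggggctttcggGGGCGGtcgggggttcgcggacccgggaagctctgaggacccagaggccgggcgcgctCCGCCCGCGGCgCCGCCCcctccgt
GJA1, chr6:121435396-121435576, plus strand: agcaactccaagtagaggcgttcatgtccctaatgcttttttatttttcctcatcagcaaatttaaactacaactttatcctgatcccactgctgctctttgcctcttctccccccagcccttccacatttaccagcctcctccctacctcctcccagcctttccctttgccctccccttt

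In the GJB2 window the GC boxes began 155, 97 and 85 bases before the RefSeq start. The AP-2 match, which began at 95 bases, overlapped the middle one. A GC box occurred in 44.95% of all 35116 RefSeq windows of this length and an AP-2 match in 23.2%. The 181 bases printed for GJA1 held none of these letters. Its window did hold 1 AP-1 match, 48 bases before the RefSeq start and inside a GENCODE exon. AP-1 matches occurred in 4.95% of all windows, TATA boxes in 11.53% and CCAAT boxes in 34.61%. The GJB6 window, which is exonic in GENCODE for all 250 upstream bases, held no match to any of these motifs. The GC content was 71.7% in the GJB2 window, 47.0% in that of GJA1 and 51.3% in that of GJB6, against a median of 58.7% over all windows. These matches are a description of letters and not of factor binding.

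IQGAP2 was lower in the hairpin libraries, with 0.0182 to 0.0328 FPKM against 0.190 to 0.2 FPKM in control libraries (limma adjusted p = 0.0217). Without any 1 control library, or without knockdown replicate 3, that call was lost (adjusted p 0.0533 to 0.0592). On recovered reads, 67 in the controls against 8 in the knockdown, the depth-corrected ratio was 0.122 and voom gave a log2 change of -2.86 (adjusted p = 4.7e-05). FPKM counts fragments per kilobase of gene, scaled by depth. The whole reads behind the values could be recovered and amounted to 12901037 to 15360759 per library. Knockdown replicate 2 stood apart, since the chi-square of its reads divided by the degrees of freedom was 11.3 and 10.5 against the other knockdown libraries, and 2.10 to 2.49 for all other pairs of a group. Keratinocyte markers (KRT5, KRT14, TP63, COL17A1 and ITGA6) summed to 3953 to 4059 FPKM in the controls and 4066 to 4452 FPKM in the knockdown. Of 6 fibroblast markers COL1A1, DCN and LUM were in the table. They summed to 3.46 to 3.79 FPKM in the controls and 1.56 to 1.91 FPKM in the knockdown. The 3 did not move alike. Mean LUM fell from 2.21 to 0.268 FPKM and mean DCN from 0.207 to 0.0426 FPKM. COL1A1 averaged 1.24 FPKM in the controls and 1.44 FPKM in the knockdown (limma adjusted p = 0.237, not passed). The part of these markers in the results was not tested. Of 5 melanocyte, 5 endothelial and 5 immune markers 1, 2 and 1 were in the table, and each list summed to under 1 FPKM in every library.

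Between the groups, 2 of the 4 connexins were higher in the knockdown, 2 did not pass the test and none was lower. GJB6 rose 1.83-fold from a low level and GJB2 rose 1.17-fold from a high one, as ratios of mean FPKM. GJA1 and GJB5 did not pass. Over all 11214 genes tested, 29.5% were called higher and 57.4% were called in either direction, so a call on 2 of 4 genes is near the background of this comparison. The test was limma on log2(FPKM + 1), with p-values adjusted over all genes tested and a threshold of 0.05. In these bulk libraries, more cells with a transcript and more transcript per cell cannot be told apart.

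**Figure D1:**
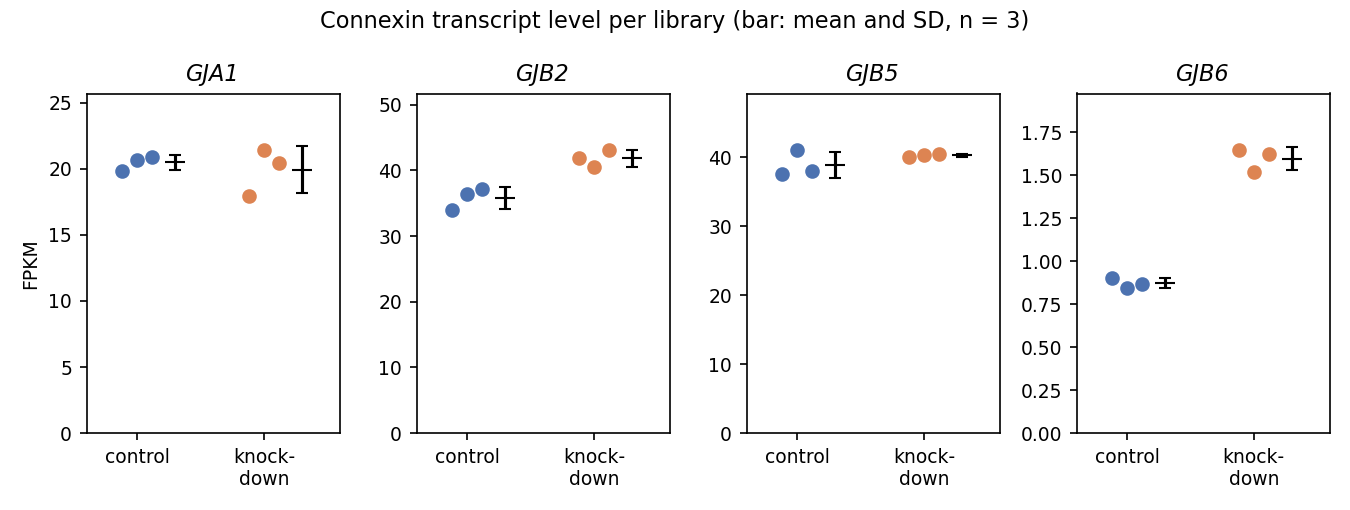
FPKM of GJA1, GJB2, GJB5 and GJB6 in each of the 3 control (blue) and 3 knockdown (orange) libraries, in replicate order from left to right, with the mean and SD of each group as a black bar. The groups do not overlap for GJB2 and GJB6, and do overlap for GJA1 and GJB5.

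GJB6, a connexin whose altered forms cause a skin disorder with hair loss, was the least abundant of the 4. Control replicates 1, 2 and 3 held 0.903, 0.844 and 0.869 FPKM. Knockdown replicates 1, 2 and 3 held 1.65, 1.52 and 1.62 FPKM. Every knockdown library lay above every control library, by more than the spread within either group. Such a lack of overlap was found for 65.1% of all genes tested, with 33.7% higher and 31.4% lower in the knockdown. The 3 control libraries averaged 0.872 ± 0.0295 FPKM and the 3 knockdown libraries 1.6 ± 0.0669 FPKM (SD, n = 3 each). The values rest on few reads, 45, 39 and 40 in the control and 70, 77 and 74 in the knockdown libraries. Corrected for depth, the ratio of reads was 1.82 (exact 95% interval 1.46 to 2.29, for counting error alone). On log2(FPKM + 1) the change of GJB6 was 0.47 (SE 0.071, limma adjusted p = 3.22e-04). That scale understates low genes, and with voom on the recovered reads the log2 change was 0.86 (SE 0.19, adjusted p = 0.00126), in a fit that called 58.9% of all genes and 30.5% as higher. Without knockdown replicate 2, the library that stood apart, the log2(FPKM + 1) changes were 0.49 for GJB6 and 0.24 for GJB2, and both passed. Of all genes tested, 8.55% had a larger rise on log2(FPKM + 1).

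GJB2, the connexin most often altered in inherited deafness, was among the abundant ones. Its level was 33.9, 36.4 and 37.1 FPKM in control replicates 1, 2 and 3. In knockdown replicates 1, 2 and 3 it was 41.9, 40.5 and 43.1 FPKM. The lowest knockdown library lay above the highest control library. The means were 35.8 ± 1.67 and 41.8 ± 1.30 FPKM (SD, n = 3 each), a difference larger than either SD. GJB2 had 1273 to 1292 reads in each control and 1348 to 1550 reads in each knockdown library. The log2 change was 0.22 (SE 0.050, 95% interval 0.11 to 0.33, limma adjusted p = 0.00394), and 26.1% of all genes tested rose more. The adjusted p stayed between 5.73e-05 and 0.024 over all 16 alternatives.

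GJB5, a connexin of differentiating keratinocytes, was about as abundant as GJB2. Its control libraries held 37.6, 41.1 and 38.0 FPKM in replicate order. Its knockdown libraries held 40.1, 40.3 and 40.5 FPKM. All 3 knockdown values lay between the lowest and the highest control value. The means were 38.9 ± 1.89 FPKM for the controls and 40.3 ± 0.195 FPKM for the knockdown (SD, n = 3 each). The log2 change of GJB5 was 0.05 (SE 0.047, 95% interval -0.05 to 0.16, limma adjusted p = 0.377). The call depended on scaling. GJB5 passed as higher when each library was rescaled to a common sum of FPKM (log2 change 0.21, adjusted p = 0.00377) and when the trend over transcript length was removed (0.26, adjusted p = 0.00241). Those settings called 59.8% and 56.7% of all genes, and 43.4% and 28.3% as higher.

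GJA1, the most widely expressed connexin of the body, did not pass the test in either direction. The control libraries were close together at 19.9, 20.7 and 20.9 FPKM. The knockdown libraries were wider apart at 17.9, 21.4 and 20.5 FPKM, with replicate 1 below and replicate 2 above all controls. The coefficient of variation was 2.64% in control and 9.04% in knockdown libraries. The means were 20.5 ± 0.540 and 19.9 ± 1.8 FPKM (SD, n = 3 each). With 791 to 1125 reads per library, the depth-corrected ratio of reads was 0.979, with an exact 95% counting interval of 0.930 to 1.03. The log2 change of GJA1 was -0.040 (SE 0.065, 95% interval -0.19 to 0.10, limma adjusted p = 0.62). It was 0.12 with a common sum of FPKM, 0.038 with the length trend removed and 0.031 without knockdown replicate 1, none of which passed.

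Over all genes, FPKM summed to 271372 to 274709 in the control and 234624 to 248082 in the knockdown libraries. Rescaling to a common sum therefore moved the median change of all genes tested from 0.01 to 0.14, and the share of calls that were higher from 51.5% to 72.6%. Against that median, the rescaled changes of GJB6 (0.56) and GJB2 (0.38) lay above it, that of GJB5 (0.21) slightly above it and that of GJA1 (0.12) just below it. Short genes had lower changes than long ones in these libraries. GJB5, with 1355 bases of exons, falls in the shortest decile of genes, where the median change was -0.19. GJB2, with 2546 bases, falls in the second decile (median -0.14), and GJB6 and GJA1, with 3300 and 3413 bases, fall in the third (median -0.10). With the length trend removed, GJB2 and GJB6 were higher by 0.35 and 0.56 on the log2 scale.

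**Figure D2:**
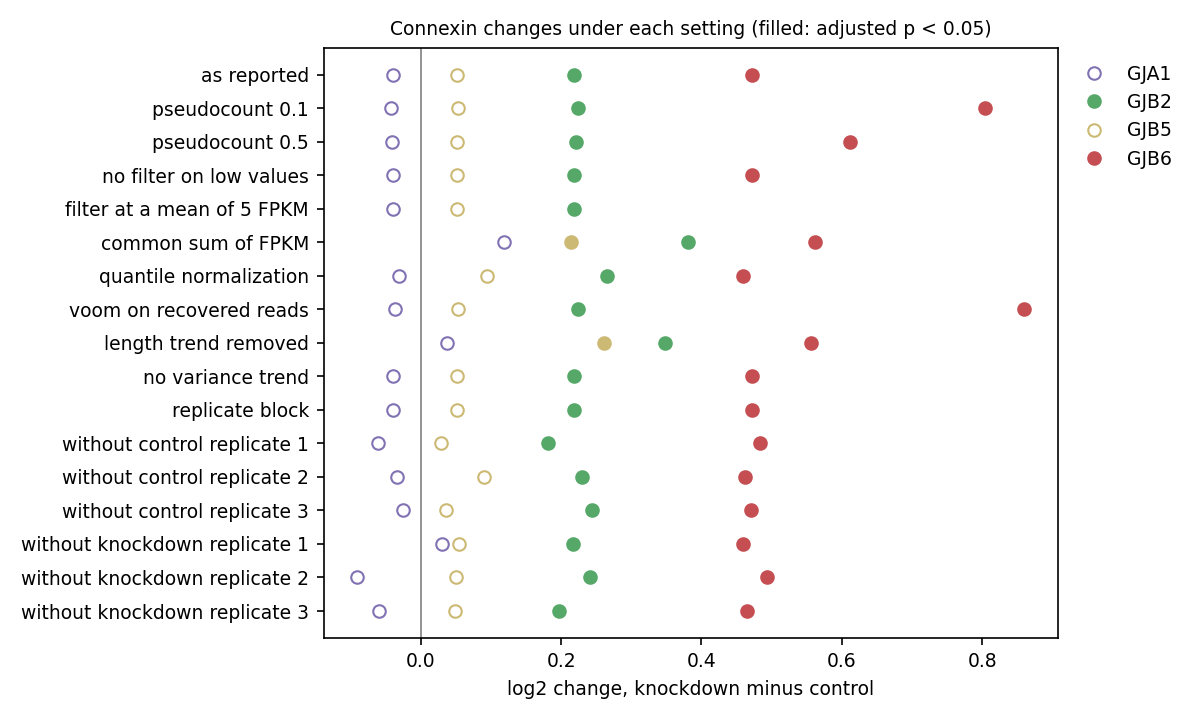
Log2 change (knockdown minus control) of the 4 connexins in the fit as reported and under each of 16 alternative settings, with filled points for an adjusted p below 0.05. GJB2 and GJB6 are filled wherever they were tested (GJB6 lies below the filter at 5 FPKM), GJB5 is filled under 2 settings and GJA1 under none.

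In order of level per length, GJB5 (38.9 FPKM) and GJB2 (35.8 FPKM) led the 4 in control libraries, with GJA1 (20.5 FPKM) below them and GJB6 (0.872 FPKM) far lower. GJB5 was above GJB2 in 3 of 3 control libraries and below it in 3 of 3 knockdown libraries. In control libraries GJB5 spanned 37.6 to 41.1 FPKM and GJB2 33.9 to 37.1 FPKM, while in knockdown libraries they spanned 40.1 to 40.5 and 40.5 to 43.1 FPKM. The ranges of the pair did not overlap in either group, by a small gap in both. In knockdown replicate 2 GJB5 and GJB2 were nearly equal, at 40.34 and 40.48 FPKM. The order of the pair was not tested. GJA1 and GJB6 kept their places in all 6 libraries.

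The 4 transcripts together summed to 92.3, 99.0 and 96.9 FPKM in the control libraries and to 102, 104 and 106 FPKM in the knockdown libraries. The difference of the mean sums was 7.60 FPKM, and 19.2 FPKM with a common sum of FPKM over all genes. The sum was higher in every knockdown library than in any control library (exact two-sided permutation test, p = 0.1, the smallest that 3 libraries against 3 allow). The shares within the sum do not depend on a scaling factor common to all genes of a library. They can depend on the length trend, and no share was computed with that trend removed. GJB2 made up 37.3% ± 0.892 of the sum in control and 40.4% ± 1.19 in knockdown libraries (SD, n = 3 each). GJA1 made up 21.3% ± 0.388 and 19.2% ± 1.5, a difference of -2.10 percentage points that shrank to -1.32 without knockdown replicate 1. GJB6 made up 0.909% ± 0.0633 and 1.54% ± 0.0776. For these 3 shares the groups did not overlap, with an exact p = 0.1 each and 0.133 adjusted over the 4 shares, so none can pass in this design. GJB5 made up 40.5% ± 1.16 and 38.9% ± 0.577, and its groups overlapped (exact p = 0.2, adjusted 0.2).

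**Figure D3:**
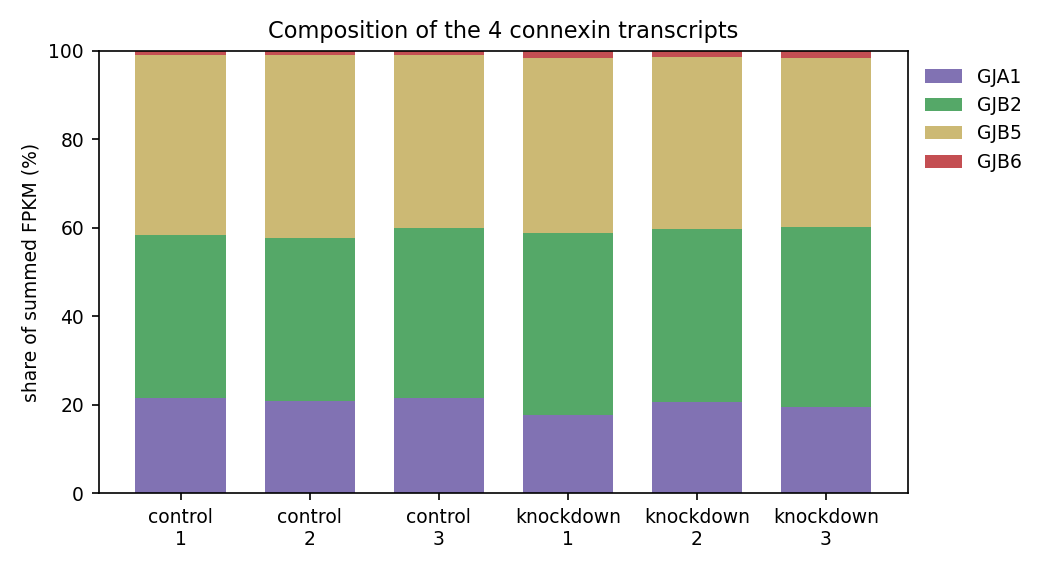
Share of each connexin in the summed FPKM of the 4, in percent, for each library (stacked bars, each adding to 100%). GJB2 takes 36.8% to 38.3% in control and 39.0% to 41.3% in knockdown libraries, while GJB6 is the thin top layer of 0.853% to 1.62%.

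The neighbours GJB2 and GJB6 were both higher but not by the same factor. GJB6 stood at 2.66%, 2.32% and 2.34% of the GJB2 level in control replicates 1, 2 and 3. It stood at 3.93%, 3.76% and 3.77% in knockdown replicates 1, 2 and 3. The log2 ratio of GJB6 to GJB2 was higher by 0.65 in the knockdown, with no overlap between groups (exact two-sided permutation p = 0.1, the smallest possible). GJA3, a lens connexin, lies on the other side of GJB2 from GJB6. GJA3 averaged 0.907 ± 0.228 FPKM in control and 1.09 ± 0.116 FPKM in knockdown cells, a difference that missed the threshold (log2 change 0.14, limma adjusted p = 0.242). GJC1 (Cx45), a connexin of heart and smooth muscle, averaged 2.00 ± 0.0132 and 1.82 ± 0.280 FPKM (log2 change -0.093, limma adjusted p = 0.37, not passed). The GJC1 change was 0.017 with a common sum and passed as lower with the length trend removed (-0.20, adjusted p = 0.0414).

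Pannexins form channels of their own that release ATP, and ATP outside the cell acts on purinergic receptors. PANX1, the pannexin found most widely in tissues, held 21.5, 19.7 and 19.7 FPKM in the control libraries. It held 27.6, 30.3 and 25.4 FPKM in the knockdown libraries, all higher, and rose by a log2 change of 0.43 (SE 0.067, limma adjusted p = 3.91e-04). PANX2, a pannexin best known from the brain, fell from 4.33 ± 0.526 to 2.72 ± 0.690 FPKM (log2 change -0.53, adjusted p = 0.00473). NT5E, the enzyme that turns extracellular AMP into adenosine, rose from 13 ± 0.134 to 22.6 ± 1.51 FPKM (log2 change 0.75). The ATP-gated channel gene P2RX5 fell from 1.59 ± 0.302 to 0.735 ± 0.0630 FPKM (log2 change -0.57). Of 12 genes listed 10 were tested, of which 2 were higher, 2 lower and 6 did not pass, with a median change of 0.04 against 0.01 over all genes. That is a smaller share of calls than the 57.4% of all genes. P2RY2, an ATP and UTP receptor of keratinocytes, averaged 10.6 ± 0.600 and 11.2 ± 1.84 FPKM (adjusted p = 0.522, not passed).

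**Figure D4:**
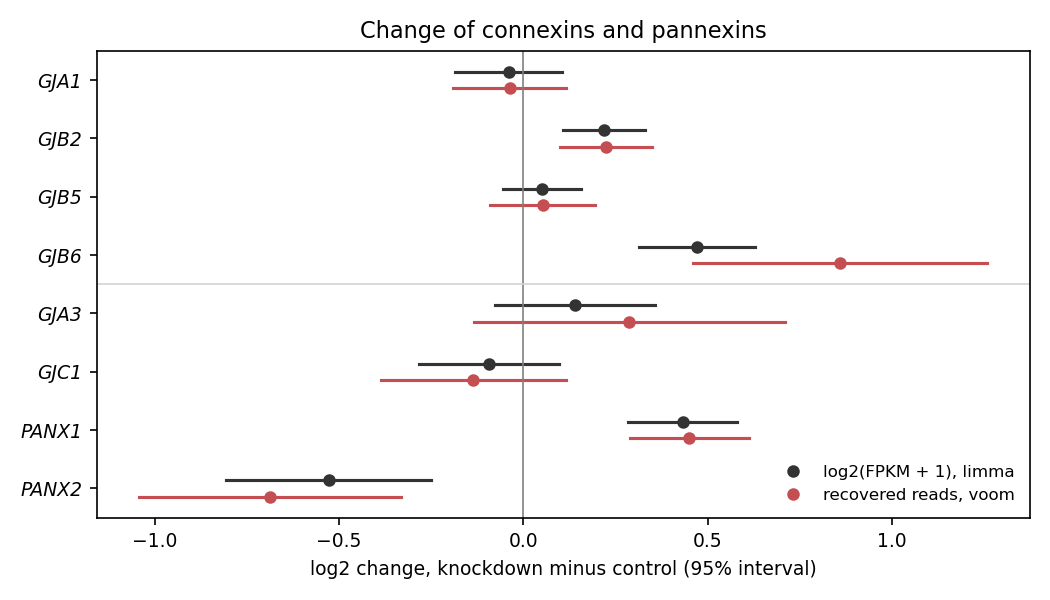
Log2 change (knockdown minus control) with its 95% interval for 6 connexins and 2 pannexins, from limma on log2(FPKM + 1) (black) and from voom on recovered reads (red). The intervals of GJB2, GJB6 and PANX1 lie above 0 and that of PANX2 below 0. The 2 scales differ most for GJB6, at 0.47 and 0.86.

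Genes that serve connexin assembly, transport and turnover went both ways, with 12 of 28 tested higher, 5 lower and 11 not passing, against 29.5% higher and 27.8% lower over all genes tested. Their median change was 0.11 against 0.01 over all genes. With a common sum of FPKM 21 were higher and 2 lower, a setting in which 43.4% of all genes were higher. Among scaffold and adherens partners TJP1, which binds the tail of GJA1 at the edge of plaques, rose to 12.5 ± 0.920 FPKM from 7.31 ± 0.161 FPKM (log2 change 0.70, limma adjusted p = 1.39e-05). CAV2, a protein of caveolae, rose from 84.4 ± 1.42 to 138.6 ± 2.77 FPKM. The P-cadherin gene CDH3 fell from 112 ± 0.997 to 93.0 ± 3.17 FPKM (log2 change -0.27). CTNND1, the catenin that binds the cadherin tail near the membrane, fell from 3.77 ± 0.0677 to 2.99 ± 0.282 FPKM, but did not pass with a common sum (adjusted p = 0.16). The transport gene KIF5B, a kinesin, rose from 33.4 ± 1.23 to 61.1 ± 6.90 FPKM (log2 change 0.85). ERP29, a chaperone of the endoplasmic reticulum that holds GJA1 protein unassembled, fell from 83.7 ± 0.521 to 67.3 ± 6.33 FPKM. Of 11 genes of uptake and degradation 6 were higher and 1 lower, against the same 29.5% and 27.8% of all genes. They include NEDD4, a ubiquitin ligase that acts on GJA1 protein, which rose from 19.4 ± 0.656 to 23.8 ± 2.46 FPKM (log2 change 0.28, limma adjusted p = 0.0058). DAB2, an adaptor of clathrin uptake, lay below the filter and was not tested.

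Of 21 kinases, phosphatases and calmodulin genes that act on connexin channels, 6 were higher, 4 lower and 11 did not pass, a share of calls no larger than the 29.5% higher and 27.8% lower of all genes. Their median change was -0.03. CSNK1A1, a casein kinase, rose from 18.5 ± 0.235 to 33.4 ± 3.08 FPKM. The receptor gene EGFR rose from 29.6 ± 0.842 to 49.4 ± 4.90 FPKM. PRKCD, a protein kinase C, fell from 8.33 ± 0.0328 to 5.11 ± 0.622 FPKM. CALM2 and CALM3 encode calmodulin, which closes connexin channels when calcium rises. CALM2 fell from 39.2 ± 1.01 to 30.5 ± 0.943 FPKM. CALM3 fell from 70.6 ± 0.0160 to 51.8 ± 2.37 FPKM. SRC, which phosphorylates GJA1 protein, averaged 18.6 ± 0.648 and 17.7 ± 0.732 FPKM (adjusted p = 0.294, not passed). Its change was 0.091 with a common sum.

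Among transcription factors linked to connexin promoters, 9 of 16 tested were higher, 2 lower and 5 did not pass, with a median change of 0.21 against 0.01 over all genes. Of all genes tested 29.5% were higher and 27.8% lower. KLF4, a factor of differentiating keratinocytes, rose from 27.2 ± 0.721 to 47.3 ± 2.63 FPKM. KLF5, a factor of dividing epithelial cells, rose from 86.2 ± 1.76 to 122.6 ± 4.43 FPKM. For the GC box, SP3 rose from 5.63 ± 0.299 to 8.34 ± 0.773 FPKM (log2 change 0.49, limma adjusted p = 3.32e-04), while SP1 averaged 21.4 ± 0.0917 and 22.3 ± 1.97 FPKM (adjusted p = 0.46, not passed). TFAP2A, which binds AP-2 sites, rose from 10.6 ± 0.688 to 12.9 ± 0.272 FPKM. TFAP2C, also on this list and more abundant, averaged 17.5 ± 0.424 and 19.1 ± 1.28 FPKM (limma adjusted p = 0.103, not passed). TP63, the master factor of stratified epithelia, rose to 113.9 ± 5.5 FPKM from 101 ± 0.980 FPKM (log2 change 0.17, limma adjusted p = 0.00978), a call lost with the length trend removed (0.093, adjusted p = 0.0542). The genes of AP-1, which pairs JUN with FOS proteins, went both ways. JUN fell from 148 ± 3.50 to 91.7 ± 2.44 FPKM (log2 change -0.68). FOSL1 rose from 102 ± 4.18 to 143 ± 12.7 FPKM (log2 change 0.48) and FOSL2 from 29.4 ± 0.969 to 37.5 ± 4.11 FPKM (0.33). FOS passed as higher at 223.5 ± 5.23 against 203 ± 1.56 FPKM (log2 change 0.14, limma adjusted p = 0.0224). The FOS call was lost under 5 of 16 alternatives. They include leaving out any 1 control library or knockdown replicate 3 (adjusted p 0.067 to 0.0869). JUNB passed as lower, at 401 ± 11 FPKM in knockdown against 447 ± 5.57 FPKM in control libraries (limma adjusted p = 0.0185). However, its change was 0.0097, 0.035 and 0.026 with a common sum, with quantile normalization and with the length trend removed. The JUNB call was also lost without any 1 control library or without knockdown replicate 1 (adjusted p 0.0571 to 0.0877).

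**Figure D5:**
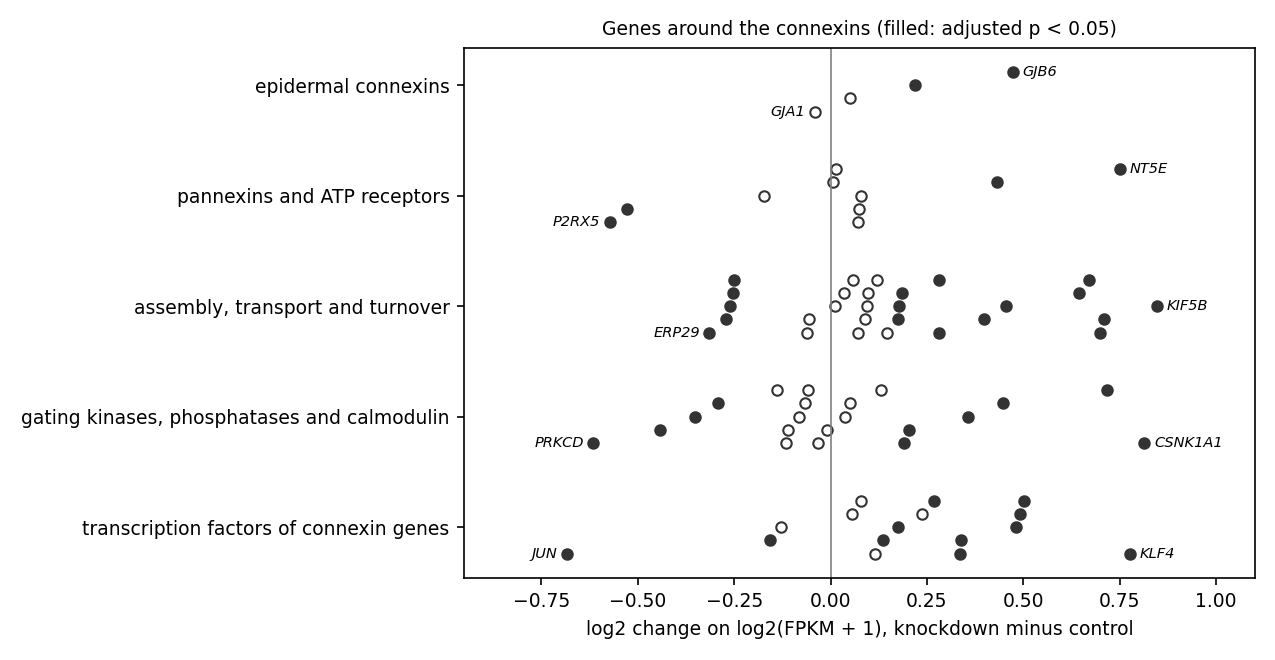
Log2 change on log2(FPKM + 1), knockdown minus control, of each tested gene in 5 lists of connexins and genes that act on them, filled where the adjusted p is below 0.05 (vertical offsets within a list only separate points). The named points are the lowest and highest of each list, from -0.68 for JUN to 0.85 for KIF5B.

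The genes whose profile was most like that of each connexin were found by the Euclidean distance of the 6 log2(FPKM + 1) values after subtraction of the control mean, among genes that averaged 5 FPKM or more. For GJB6 they were MARS1, the methionyl-tRNA synthetase, NDRG1, a stress-induced gene, and MAPK1IP1L (distances 0.0391, 0.0521 and 0.0599). For GJB2 they were MORC4, the phosphatase gene PTPN1 and HNRNPUL2, a ribonucleoprotein gene (0.0526, 0.0666 and 0.0695). For GJA1 they were MRE11, a nuclease of DNA repair, ARHGAP32 and the mitochondrial ribosomal gene MRPL19 (0.0522, 0.0637 and 0.0673). For GJB5 they were MOB3A, MRPL30 and BUD31 (0.0688, 0.0702 and 0.0704). The added 1 FPKM compresses low genes, so GJB6, which rose 1.83-fold in mean FPKM, was matched with genes that rose less, 1.41-fold for MARS1, 1.39-fold for NDRG1 and 1.38-fold for MAPK1IP1L. With only 6 libraries in 2 groups such likeness is common. Within a distance of 0.2 there were 242 genes for GJB6, 449 for GJB2, 360 for GJA1 and 766 for GJB5.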

How the data were processed

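RNA of 6 HaCaT libraries was extracted with TRIzol and prepared with an Illumina TruSeq kit, per the labels' protocols. FPKM, as the authors deposited them, stand in 1 column per library. Every gene averages 0.1 FPKM or more. HISAT2 2.2.1 and GRCh38 were used, per the submitters' processing notes. The sources used here do not name the counting program, the annotation or the use of strand.

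Whole reads were recovered for all 12829 genes from the steps of FPKM within a gene (tolerance 0.004 reads), and gave 12901037 to 15360759 per library. A divisor common to all reads of a gene cannot be seen. Intervals from reads are exact (Clopper-Pearson, 95%) and cover counting error only, since reads are not independent molecules.

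Knockdown was compared with control by limma 3.58.1 (R 4.3.3). The fit used log2(FPKM + 1) of 11214 genes that averaged 0.5 FPKM or more, with a variance trend, two-sided tests and Benjamini-Hochberg adjustment over all genes (threshold 0.05). IQGAP2, below the filter, was added in a separate fit. Sums, shares and ratios were tested by exact permutation in SciPy 1.17.1. The fits were tested on simulated data. Lengths and loci came from GENCODE v29, in which 12818 identifiers matched.

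Alternatives were pseudocounts, filters, scalings, length trend, variance model, replicate block, voom and leaving out each library. The members and lists were chosen with earlier results of these data known. Named genes are the 4 members, the other connexins and pannexins in the table, up to 3 largest rises and 3 largest falls past the threshold in each of 3 lists, preset genes of these lists (TJP1, NEDD4, SRC, CALM2, CALM3, TFAP2A and TP63), ATP receptors and enzymes past the threshold, IQGAP2 and the 3 most alike genes per member; some genes of this rule are not reported here. P2RY2, SP1, TFAP2C, FOS, FOSL1 and FOSL2 were named after their values were seen.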

Additional observations from a re-analysis of the deposited data

How the results depend on the processing

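GJB2 and GJB6 kept their direction and their call under every alternative in which they were tested (16 and 15). With pseudocounts of 0.1 and 0.5 the GJB6 change was 0.80 and 0.61. GJB5 passed with a common sum of FPKM (0.21) and with the length trend removed (0.26). GJA1 turned positive, without passing, in both (0.12 and 0.038) and without knockdown replicate 1 (0.031). Leaving out single libraries gave changes of -0.091 to 0.031 for GJA1, 0.18 to 0.24 for GJB2, 0.029 to 0.090 for GJB5, 0.46 to 0.49 for GJB6 and -0.23 to -0.22 for IQGAP2. It gave 1 to 2 transcription factors called lower.

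With a common sum 1838 genes were called lower over the whole table, against 3121. Of the assembly, transport and turnover genes 21 were then higher and 2 lower. Of the transcription factors 1 was lower with a common sum, with quantile normalization and with the length trend removed. With a filter at 5 FPKM 0 pannexin and ATP receptor genes were called lower, since PANX2 and P2RX5 lie below that filter. JUNB turned to 0.0097, 0.035 and 0.026 with a common sum, quantile normalization and the length trend removed, GJC1 to 0.017 and SRC to 0.091 with a common sum. The cause of these changes was not tested. The sum of the 4 connexins, their shares and the GJB6 to GJB2 ratio kept their direction without any 1 library.

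The replicate numbers are not stated to pair the libraries. Deviations of same-numbered libraries correlated at -0.104, -0.0552 and 0.0561 over 6842 genes. Those of differently numbered libraries correlated at -0.120 to 0.148. With 3 libraries per group, these values cannot show whether the libraries were paired. With replicate number as a block the changes were -0.040 for GJA1, 0.22 for GJB2, 0.051 for GJB5 and 0.47 for GJB6, with 3167 genes higher and 3024 lower, and no call of these 4 connexins changed. Depth limits GJB6 most, at 39 to 77 reads per library.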
